A study of Mus musculus with 12 samples.

Results

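The proteins of germ granules that carry Tudor domains were followed here through 8 genes of the mouse testis, Tdrd1, Tdrd5, Tdrd6, Tdrd7, Tdrd9, Tdrkh, Rnf17 and Stk31. All probe sets that the array annotation assigns to only 1 of these genes were taken, 12 of the 45101 on the array. They covered 7 of the 8 genes, out of 18193 genes named through such probe sets, and Tdrd6 is not analysed here. Rnf17 had 4 probe sets, Tdrd7 and Stk31 had 2 each, and the other genes had 1 each. The arrays measured total RNA of testes from mouse embryos of stage E15.5 in 4 groups of 3 arrays, Dmrt1 knockout (KO) and wild type (WT) testes of the 129Sv strain, and Dmrt1 KO and WT testes of the B6 strain. Dmrt1 is a transcription factor gene whose product works in germ cells and in Sertoli cells. The series text calls the removal of Dmrt1 conditional whereas the samples are labelled as knockouts, and the Cre line and the cells in which it acts are not stated in the sources used. The labels give E15.5 as the age, although the growth protocol speaks of P28. In B6, KO and WT replicate 1 share the first number of their titles, with different letters after it, as do KO and WT replicate 2, and what the number marks is not stated. A second number stands before the strain code in the titles. In 129Sv it is 7 on the 3 KO arrays and WT replicate 2, and 11 on WT replicates 1 and 3. In B6 it is 10, except that WT replicate 3 has none. What this second number marks is not stated either, and in 129Sv it is partly confounded with genotype. As a covariate it leaves WT replicate 2 alone to set the 129Sv WT level. The labels do not say whether the arrays of a group come from separate animals, so that p-values measure the spread between these arrays, which may be technical.

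A Tudor domain is a small fold that binds methylated arginines. In germ cells its main known partners are the PIWI proteins, whose tails are arginine methylated and which carry piRNAs, the small RNAs that silence transposons in the male germ line. The fetal testis is the place where germ cells load PIWI proteins with piRNAs and re-methylate transposon DNA, and the granules between their mitochondria hold many of the proteins described below.

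The targeted gene was lower in both sets of KO arrays. Dmrt1 averaged 167 ± 18.9 in 129Sv KO testes and 1040.3 ± 132 in 129Sv WT testes (intensity, SD, n = 3 each). It averaged 74.4 ± 11.3 in B6 KO testes and 984 ± 164 in B6 WT testes (intensity, SD, n = 3 each). The median intensity of an array lay between 17.3 and 19, and arrays of a group correlated with r between 0.983 and 0.998. The Actb control probe sets at the 3′ and 5′ ends gave a ratio, higher in degraded RNA, that was 6.30 in B6 KO replicate 3 and 5.24 in 129Sv KO replicate 1, against 1.99 to 3.91 on the other arrays. B6 KO replicate 3 also had the lowest summed intensity of 6 germ cell markers (Ddx4, Dazl, Dnd1, Pou5f1, Dppa3 and Mael) of the 12 arrays, 8324. In RNA of whole testes, fewer germ cells and less RNA per germ cell cannot be told apart.

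The promoters of 6 of the 8 genes were found in the RefSeq table of the mouse build GRCm38.p6. The 250 bases before the start are shown for the 3 genes whose window holds CACGTG, the E-box letters, and for Tdrd5. Tdrd5 was the only member that passed the test of a difference in KO effect between strains, though not in every fit (below). CACGTG was searched on both strands, as were GCGGGA and ACANTGT. Capitals mark CACGTG in the first 3 sequences and GCGGGA, read on the other strand as TCCCGC, in the last.
Tdrd9 promoter, chr12:111971309-111971558, plus strand: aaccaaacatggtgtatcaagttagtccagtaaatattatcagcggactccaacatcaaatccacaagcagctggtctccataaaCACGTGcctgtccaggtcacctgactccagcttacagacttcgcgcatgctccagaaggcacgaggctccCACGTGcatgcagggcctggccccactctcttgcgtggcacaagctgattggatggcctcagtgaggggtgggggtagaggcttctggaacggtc
Tdrd1 promoter, chr19:56825959-56826208, plus strand: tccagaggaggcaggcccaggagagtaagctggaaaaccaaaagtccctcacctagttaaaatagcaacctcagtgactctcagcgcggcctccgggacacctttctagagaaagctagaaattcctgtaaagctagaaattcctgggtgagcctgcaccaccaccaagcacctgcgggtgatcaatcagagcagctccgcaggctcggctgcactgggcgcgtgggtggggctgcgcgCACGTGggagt
Stk31 promoter, chr6:49395289-49395538, plus strand: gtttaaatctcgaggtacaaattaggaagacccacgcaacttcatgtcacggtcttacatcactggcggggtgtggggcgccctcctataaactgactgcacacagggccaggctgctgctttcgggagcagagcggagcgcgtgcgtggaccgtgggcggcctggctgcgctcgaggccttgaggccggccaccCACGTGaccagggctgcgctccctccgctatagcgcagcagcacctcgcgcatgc
Tdrd5 promoter, chr1:156303349-156303598, minus strand: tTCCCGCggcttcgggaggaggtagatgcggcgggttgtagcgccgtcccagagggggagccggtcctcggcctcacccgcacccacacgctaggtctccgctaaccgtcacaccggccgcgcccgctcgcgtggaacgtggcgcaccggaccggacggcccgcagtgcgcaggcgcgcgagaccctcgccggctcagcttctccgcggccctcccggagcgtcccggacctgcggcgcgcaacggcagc
Tdrd9 held CACGTG at 165 and at 95 bases before its start. Tdrd1 held it 11 bases and Stk31 55 bases before the start. Of 32851 promoter windows of the same length in the table, 6.02% held CACGTG, 16.9% held GCGGGA and 6.47% held ACANTGT. None of the windows of Tdrd7 or Tdrkh held any of these letters, and none of the 11 entries of the 6 genes held ACANTGT. The Tdrd5 window was rich in CpG, with 40 of these dinucleotides against a median of 6 and an upper quartile of 16 over all windows. The windows of Stk31, Tdrd1 and Tdrd9 shown held 21, 11 and 8. That of Tdrkh held 19, and those of Tdrd7 held 3, 28 and 29, so that high counts were not particular to Tdrd5. These values depend on the start, since the table has 3 starts for Tdrd1 and 2 for Stk31. The other Tdrd1 windows held 22 CpG with CACGTG 77 bases before the start, and 3 CpG with no CACGTG. The other Stk31 window held 26 CpG, with CACGTG 120 bases before the start. These matches describe letters in a window and show no binding.

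The Tudor domain genes were lower in B6 KO testes than in B6 WT testes for most members, whereas in 129Sv a single probe set was lower and a single one higher. The 11 member probe sets that reached an intensity of 16 on at least 3 arrays were tested with limma, with Benjamini-Hochberg adjustment over all 21900 probe sets tested. A probe set is said to have risen or fallen where its adjusted p was under 0.05. In B6, 6 of the 11 fell, 1 rose and 4 did not pass, where 3.78% of all tested probe sets fell and 1.24% rose. The 6 that fell belong to Tdrd1, Tdrd5, Tdrd9, Stk31 and Rnf17, and the 1 that rose is another Rnf17 probe set. In 129Sv, 1 fell (Tdrd9), 1 rose (Rnf17) and 9 did not pass, where 2.74% of all tested probe sets fell and 3% rose. Without B6 KO replicate 3 the B6 counts were again 6 lower and 1 higher. The count of lower probe sets in B6 was 8 without B6 KO replicate 1, 4 without B6 WT replicate 2 and 3 without B6 WT replicate 3. In 129Sv that count ranged from 0 to 3 as single arrays were left out. Counts set side by side do not test a difference between strains, and only Tdrd5 passed such a test (below). Leaving out single arrays also moved the B6 calls over all tested probe sets, in either direction, from 1099 to between 425 and 1630. The groups did not overlap for 6 lower and 1 higher of the 11 in B6, against 13.5% and 12% of all tested probe sets, and for 3 lower and 2 higher in 129Sv, against 13.4% and 13.9%.

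**Figure D1:**
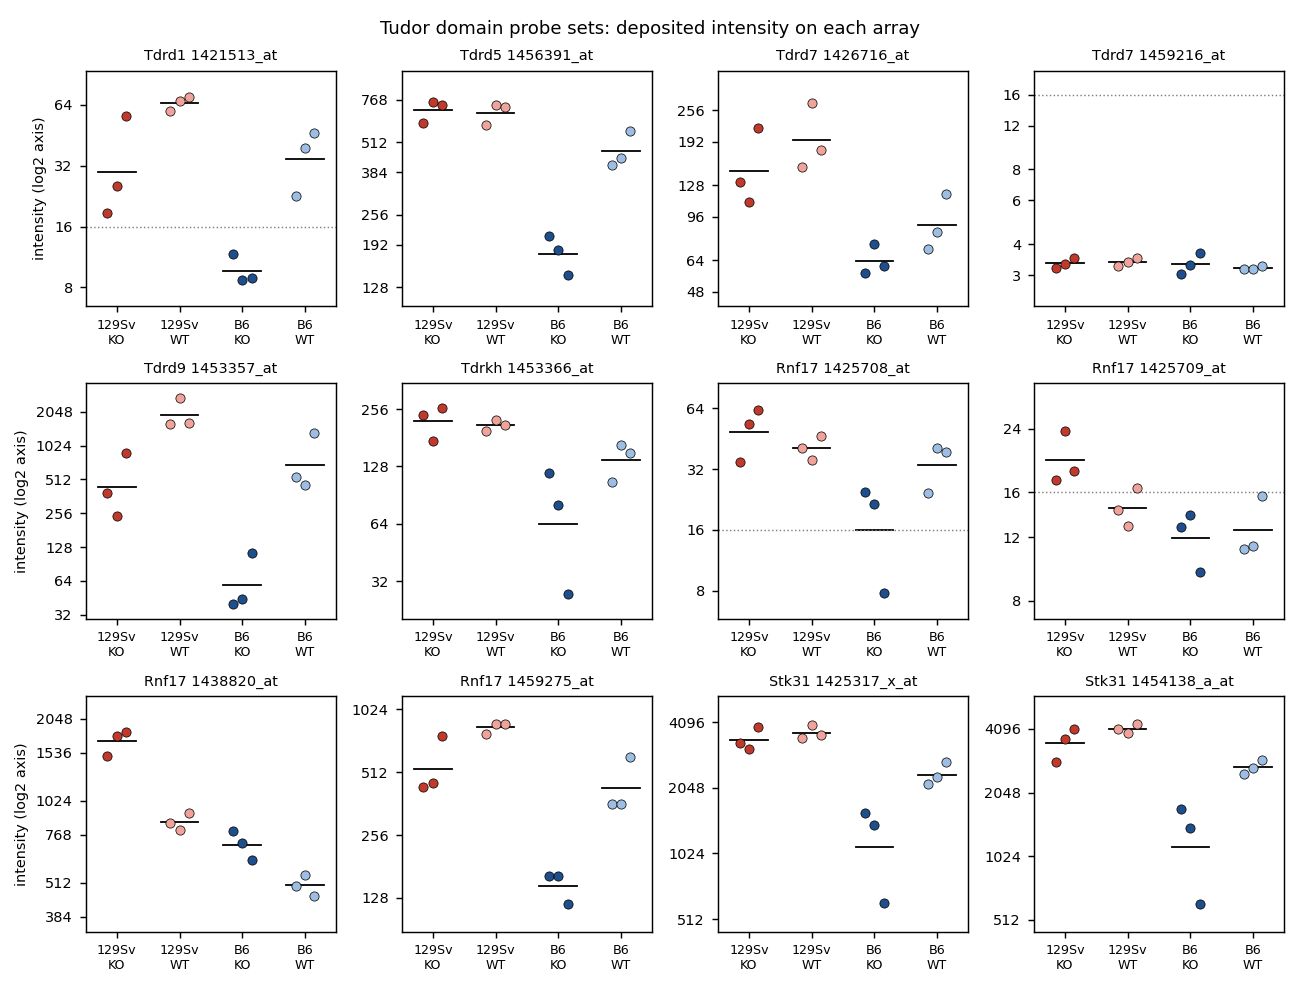
Intensity (log2 axis) of the 12 Tudor domain probe sets on each of the 12 arrays, by strain and genotype, with points for arrays and bars for the geometric mean of 3 arrays. The dotted line marks an intensity of 16, drawn where values come near it. In B6 the KO arrays of Tdrd1, Tdrd5, Tdrd9 and Stk31 lie below the WT arrays, while for Rnf17 probe set 1438820_at the KO arrays lie above them in both strains.

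Tdrd9 encodes an RNA helicase with a Tudor domain that works with the PIWI protein MIWI2 in transposon silencing, and its probe set 1453357_at had the largest fall of the members in both strains. It read 391, 242 and 884 in 129Sv KO testes, against 1595, 2709 and 1628 in 129Sv WT testes. In B6 KO testes it read 39.8, 44.2 and 113, against 535, 460.2 and 1314 in B6 WT testes. The groups did not overlap in either strain, and replicate 3 was the highest KO array in both strains. In 129Sv the difference was -2.13 ± 0.50 on the log2 scale (4.38-fold lower, adjusted p = 0.0213, limma, n = 3 each). In B6 it was -3.56 ± 0.50 (11.8-fold lower, adjusted p = 0.000966, limma, n = 3 each). The 129Sv call was lost without any 1 of 5 of the 129Sv arrays, all but KO replicate 3, at adjusted p values up to 0.116 (limma). With the title number before the strain code as a covariate the 129Sv difference was -2.63. That fit sets the KO arrays against 129Sv WT replicate 2 alone. The B6 call passed under every alternative tried. The effects in the strains differed by 1.42 ± 0.70 with an adjusted p of 0.388 (limma), so that the larger fold in B6 was not shown to differ from that in 129Sv.

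Tdrd1 is a scaffold with several Tudor domains that binds the PIWI protein MILI in the granules between mitochondria. Its probe set 1421513_at was among the dim ones. It read 18.7, 25.4 and 56.2 in 129Sv KO testes, against 59.4, 67.0 and 70.0 in 129Sv WT testes. In B6 KO testes it read 11.6, 8.75 and 8.94, against 22.6, 39.1 and 46.2 in B6 WT testes. The KO arrays of B6 all lay below an intensity of 16, under which values carry little signal, and no groups overlapped. In B6 it was at least 2.15-fold lower in KO testes, with a fitted difference of -1.83 ± 0.35 (adjusted p = 0.00811, limma, n = 3 each). This call was lost with a floor at 16 (adjusted p = 0.0926) and without B6 WT replicate 3 (adjusted p = 0.0567, limma). In 129Sv the difference was -1.13 ± 0.35 and did not pass (adjusted p = 0.0853, limma), but did without 129Sv KO replicate 3, its highest KO array (adjusted p = 0.00691, limma).

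Tdrd5 encodes a protein with LOTUS and Tudor domains that is needed for piRNA production and for the build of germ granules. In 129Sv its probe set 1456391_at hardly differed between genotypes, at 613, 752 and 731 in KO testes, against 605, 727 and 714 in WT testes. In B6 it read 209, 183 and 145 in KO testes, against 411, 440.2 and 569.7 in WT testes. The 129Sv groups overlapped and the B6 groups did not. In B6 it was 2.65-fold lower in KO testes (-1.41 ± 0.17, adjusted p = 0.000426, limma, n = 3 each), under every alternative tried. In 129Sv the difference was 0.03 ± 0.17 (95% interval -0.34 to 0.40, adjusted p = 0.952, limma, n = 3 each). The difference of the effects, 129Sv minus B6, was 1.44 ± 0.24 (95% interval 0.92 to 1.96, adjusted p = 0.0211, limma). Tdrd5 was the 1 member that passed this test, which 0.333% of all tested probe sets passed. All 11 probe sets had a positive difference, which for Rnf17 1438820_at, higher in KO testes of both strains, is a smaller rise in B6, and the adjusted p of the other 10 lay between 0.256 and 0.944 (limma). The Tdrd5 call was lost without 129Sv KO replicate 2 or 3, 129Sv WT replicate 1 or 3, or B6 WT replicate 2 or 3, at adjusted p values up to 0.0854 (limma). With the title number before the strain code as a covariate the difference of the effects was 1.34. In that fit 129Sv WT replicate 2 alone sets the 129Sv WT level.

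**Figure D2:**
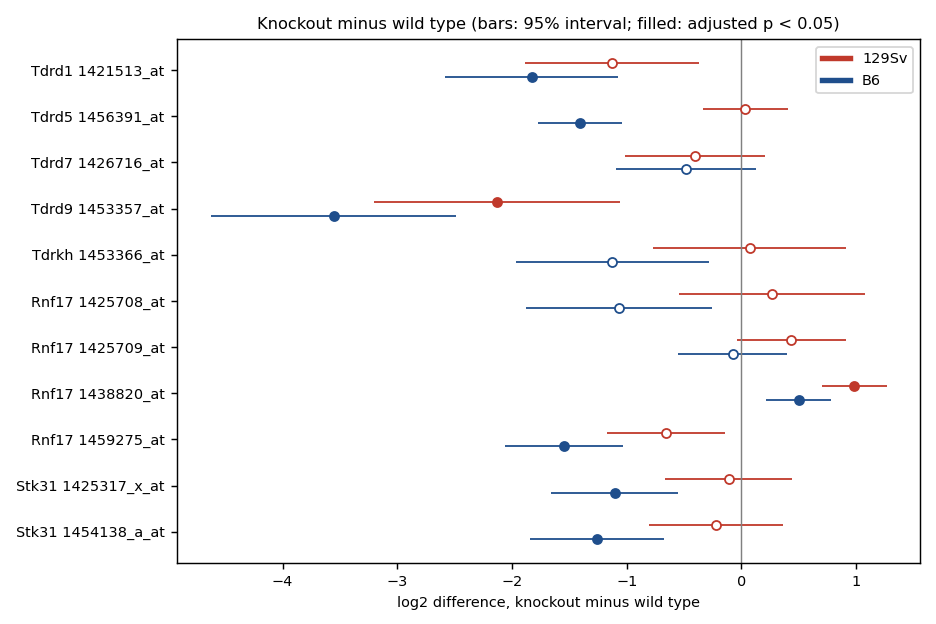
Difference of KO minus WT on the log2 scale for the 11 tested probe sets, in 129Sv and in B6, with unadjusted 95% intervals from limma, and filled points where the adjusted p is under 0.05. Points left of 0 are lower in KO testes. The interval of Tdrd5 in 129Sv spans 0, whereas in B6 it lies wholly below it.

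Tdrd7 is known from cytoplasmic granules of germ cells and of the lens, and Tdrkh tethers PIWI proteins to mitochondria, where piRNAs are trimmed. Neither passed in a KO contrast. Tdrd7 probe set 1426716_at read 132, 110.2 and 218 in 129Sv KO testes, against 152, 274 and 177 in 129Sv WT testes. In B6 it read 56.7, 74.2 and 60.6 in KO testes, against 70.9, 83.5 and 118 in WT testes. The groups overlapped in both strains. The differences were -0.41 ± 0.28 in 129Sv (adjusted p = 0.518) and -0.48 ± 0.28 in B6 (adjusted p = 0.322, limma, n = 3 each). The second Tdrd7 probe set, 1459216_at, stayed between 3.04 and 3.68 on all 12 arrays and was not tested.

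Tdrkh probe set 1453366_at read 238, 175 and 258 in 129Sv KO testes, against 197, 224 and 210.2 in 129Sv WT testes. In B6 KO testes it read 118, 80.1 and 27.4, against 107, 166 and 150.5 in B6 WT testes. The groups overlapped in both strains, and B6 KO replicate 3 was the lowest of the 12 arrays. The B6 difference was -1.12 ± 0.39 (adjusted p = 0.116) with the array and -0.52 (adjusted p = 0.269) without it, and the 129Sv difference was 0.07 ± 0.39 (adjusted p = 0.957, limma, n = 3 each). It passed in B6 without B6 KO replicate 1 (adjusted p = 0.0221, limma).

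Stk31 encodes a protein with a Tudor domain and a kinase-like domain. It fell in B6 on both of its probe sets, and in 129Sv neither passed. Probe set 1454138_a_at read 2857, 3668 and 4115 in 129Sv KO testes, against 4073, 3899.9 and 4330.4 in 129Sv WT testes. In B6 it read 1704, 1384 and 606 in KO testes, against 2494, 2680.4 and 2932 in WT testes. The 129Sv groups overlapped and the B6 groups did not, with B6 KO replicate 3 the lowest array. In B6 the value was 2.39-fold lower in KO testes (-1.26 ± 0.27, adjusted p = 0.0165, limma, n = 3 each). Without B6 KO replicate 3 the difference was -0.81 (adjusted p = 0.00458, limma). In 129Sv it was -0.22 ± 0.27 (adjusted p = 0.758, limma, n = 3 each). The second probe set, 1425317_x_at, went the same way, at -1.10 ± 0.26 in B6 (2.15-fold lower, adjusted p = 0.0249) and -0.11 ± 0.26 in 129Sv (adjusted p = 0.887, limma, n = 3 each). The probe sets correlated with r = 0.985 over the 12 arrays. Both calls were lost without B6 WT replicate 2 or without B6 WT replicate 3, at adjusted p values between 0.0572 and 0.124 (limma). With only the B6 groups in the fit the adjusted p was 0.0939 for 1454138_a_at and 0.121 for 1425317_x_at (limma). The fall of 1425317_x_at was -0.67 without B6 KO replicate 3 (adjusted p = 0.00717, limma). Once the Actb ratio was added to the model it was -0.75 and the call was lost (adjusted p = 0.107, limma).

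Rnf17 encodes a protein with a RING finger and several Tudor domains that forms its own granule in male germ cells, and long and short forms of it are known. Its 4 probe sets did not move together. Probe set 1438820_at was higher in KO testes in both strains, whereas 1459275_at was lower in B6. The sources used do not say which transcript each probe set measures, and levels of different probe sets cannot be set against each other.

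Probe set 1438820_at read 1491, 1771 and 1833 in 129Sv KO testes, against 849, 802 and 922 in 129Sv WT testes. In B6 it read 795, 716 and 620.2 in KO testes, against 499.7, 549 and 457 in WT testes. The KO arrays lay above the WT arrays without overlap in both strains. It was 1.98-fold higher in KO testes of 129Sv (0.98 ± 0.13, adjusted p = 0.000507, limma, n = 3 each), under every alternative tried. In B6 the value was 1.41-fold higher in KO testes (0.50 ± 0.13, adjusted p = 0.0445, limma, n = 3 each). The B6 call was close to the threshold. It was lost with the replicate number as a block (adjusted p = 0.0857). It was also lost when any single array other than 129Sv KO replicate 1 or B6 KO replicate 3 was left out, at adjusted p values up to 0.192 (limma). The effects in the strains differed by 0.48 ± 0.19 (adjusted p = 0.277, limma).

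Probe set 1459275_at read 433, 455 and 765 in 129Sv KO testes, against 783, 875 and 868 in 129Sv WT testes. In B6 it read 162, 162 and 119 in KO testes, against 362, 359 and 604 in WT testes. The groups did not overlap in either strain. In B6 the value was 2.93-fold lower in KO testes (-1.55 ± 0.24, adjusted p = 0.00203, limma, n = 3 each), under every alternative tried. In 129Sv the difference of -0.66 ± 0.24 did not pass (adjusted p = 0.141, limma, n = 3 each). It passed without 129Sv KO replicate 3, its highest KO array (adjusted p = 0.0325, limma).

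The other probe sets of Rnf17 were dim. Probe set 1425708_at read 34.9, 53.8 and 63.0 in 129Sv KO testes, against 40.6, 35.6 and 46.9 in 129Sv WT testes. In B6 it read 24.5, 21.6 and 7.83 in KO testes, against 24.3, 40.7 and 38.8 in WT testes. The groups overlapped in both strains, and the differences of 0.27 ± 0.38 in 129Sv (adjusted p = 0.795) and -1.07 ± 0.38 in B6 (adjusted p = 0.12) did not pass (limma, n = 3 each). The B6 difference was -0.55 without B6 KO replicate 3 (adjusted p = 0.323), and it passed without B6 KO replicate 1 (-1.38, adjusted p = 0.0489, limma). Probe set 1425709_at lay between 9.63 and 23.7 and reached 16 on 4 of the 12 arrays, the 3 of 129Sv KO testes and 129Sv WT replicate 3. Its differences were 0.44 ± 0.22 in 129Sv (adjusted p = 0.327) and -0.07 ± 0.22 in B6 (adjusted p = 0.865, limma, n = 3 each). In the annotation both of these probe sets derive from the same sequence record.

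**Figure D3:**
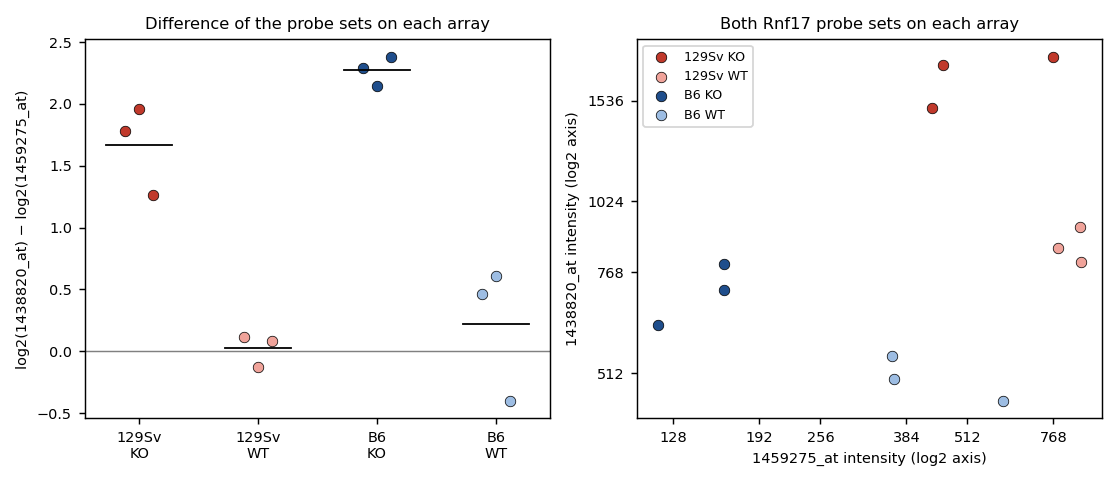
Rnf17 probe sets 1438820_at and 1459275_at. The left panel plots the log2 value of probe set 1438820_at minus that of 1459275_at on each array by strain and genotype, with a bar for the mean of 3 arrays, and the right panel plots 1 probe set against the other (intensity, log2 axes). The KO arrays have differences of 1.26 to 2.38, above the WT arrays, at -0.40 to 0.61.

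The difference between 1438820_at and 1459275_at on the same array shifted in KO testes in both strains. On the log2 scale 1438820_at minus 1459275_at was 1.78, 1.96 and 1.26 in 129Sv KO testes, against 0.12, -0.13 and 0.09 in 129Sv WT testes. In B6 it was 2.29, 2.14 and 2.38 in KO testes, against 0.47, 0.61 and -0.40 in WT testes. No KO array overlapped the WT arrays. The difference was higher in KO testes by 1.64 in 129Sv and by 2.05 in B6, on average by 1.85. An exact permutation test that exchanges genotypes within strains gave a two-sided p of 0.005, the smallest its 400 arrangements can give. Over the 6 pairs of Rnf17 probe sets tested in this way the adjusted exact p was 0.0075 for this pair and for 3 others and 0.035 for the remaining 2 pairs. The 6 pairs are drawn from the same 4 probe sets and are not independent. Each of the 3 others sets 1438820_at or 1459275_at against a dim probe set. Within a single strain the smallest exact p that 3 arrays against 3 allow is 0.1, and both strains gave it for this pair.

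The departure of each probe set from the mean of the other probe sets of its gene was also fitted with limma over 14754 probe sets of 5581 genes. In B6, 2 of the 4 Rnf17 probe sets departed past the threshold, where 0.142% of all probe sets tested in this way did. Each of the 2 is part of the mean that the other is set against, so they are not independent departures. Both dim probe sets are part of these means too. Probe set 1438820_at departed by 1.40 ± 0.21 (adjusted p = 0.0216) and 1459275_at by -1.33 ± 0.22 (adjusted p = 0.0393, limma, n = 3 each). In 129Sv the departures were 0.97 ± 0.21 (adjusted p = 0.0972) and -1.22 ± 0.22 (adjusted p = 0.0549, limma, n = 3 each). None of the 4 passed in 129Sv, where 0.176% of all probe sets did. With a filter at a log2 value of 6, which leaves out both dim Rnf17 probe sets, the 129Sv departures were 1.64 and -1.64 and passed (adjusted p = 0.0274 and 0.028, limma). Only 2 Rnf17 probe sets then remain, so these departures are a single difference read in both directions. No probe set passed the difference between strains, though 1026 of the 14754 had an unadjusted p under 0.05, and none of these was an Rnf17 probe set. Both B6 departures were lost without 129Sv WT replicate 1 or 3, B6 KO replicate 2, or B6 WT replicate 2 or 3, and that of 1459275_at also without 129Sv KO replicate 1, B6 KO replicate 1 or B6 WT replicate 1, at adjusted p values up to 0.219 (limma). With the replicate number as a block both B6 departures were lost as well (adjusted p = 0.0666 and 0.0573, limma). In 129Sv 2 of the 4 passed without B6 KO replicate 3, and 1 without 129Sv KO replicate 3. Over the 12 arrays, 1438820_at and 1459275_at correlated with r = 0.30.

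The members were higher in 129Sv than in B6, above all among the KO arrays. In KO testes all 11 probe sets, 1 of which passed the filter only through 129Sv arrays, were higher in 129Sv past the threshold, where 18.6% of all tested probe sets were. In WT testes 3 of the 11 were, where 8.97% of all tested probe sets were. The 3 were Tdrd7 (1.13 ± 0.28, 2.20-fold, adjusted p = 0.017), Rnf17 1438820_at (0.77 ± 0.13, 1.71-fold, adjusted p = 0.00168) and Rnf17 1459275_at (0.97 ± 0.24, 1.96-fold, adjusted p = 0.0157, limma, n = 3 each). Tdrd7 did not pass without 129Sv WT replicate 2, B6 WT replicate 1 or B6 WT replicate 2, and 1459275_at did not without any of these or 129Sv WT replicate 3, whereas the count was 7 without B6 KO replicate 3 and 5 without 129Sv KO replicate 3 or B6 WT replicate 3. The other 8 had log2 differences of 0.21 to 1.48 with adjusted p of 0.0525 to 0.679 (limma). As single arrays were left out, the calls between WT testes over all tested probe sets, in either direction, ranged from 1571 to 4527, against 3095. In KO testes the largest difference was that of Tdrd9 (2.90 ± 0.50, 7.49-fold, adjusted p = 0.000811), and Tdrd5 was 3.94-fold higher (1.98 ± 0.17, adjusted p = 3.27e-06, limma, n = 3 each). The smallest was that of the dim Rnf17 1425709_at (0.72 ± 0.22, adjusted p = 0.0257), which did not pass without 129Sv KO replicate 2, 129Sv KO replicate 3 or B6 KO replicate 3, without the 2 arrays of highest Actb ratio, with only the KO groups in the fit or with a floor at 16, at adjusted p values between 0.0501 and 0.101 (limma). With that floor Tdrd1 did not pass either (adjusted p = 0.0616, limma), so that 9 of the 11 did. Rnf17 1425709_at reached 16 only on the 3 129Sv KO arrays and on 129Sv WT replicate 3. It thus entered the 11 through the group where it was high. With no filter on low values all 11 passed. The comparisons in KO testes and in WT testes are of the same arrays as the KO contrasts and are not independent of them. Dmrt1 itself was higher in 129Sv KO than in B6 KO testes (1.17 ± 0.17, 2.25-fold, adjusted p = 0.000293, limma, n = 3 each). Between WT testes it did not pass (0.09 ± 0.17, adjusted p = 0.787, limma, n = 3 each). The part of the remaining Dmrt1 signal in the differences of the members was not tested. All 6 germ cell markers were higher in 129Sv KO testes than in B6 KO testes as well, and 0 of 6 were between the WT testes, where 3 of 6 had an unadjusted p under 0.05 (limma). Without B6 KO replicate 3 these counts were 5 of 6 in KO testes and 3 of 6 in WT testes (limma). Of the markers of other cells, those that passed between the KO testes were lower in 129Sv (limma). They were 2 of 7 of Sertoli cells (Amh and Gata4), 3 of 4 of fetal Leydig cells (Cyp11a1, Cyp17a1 and Hsd3b1) and 2 of 5 of endothelial cells (Kdr and Tek). The rest were 2 of 5 of macrophages and leukocytes (Adgre1 and Lyz2), 1 of 2 of red blood cells (Alas2) and 1 of 4 of interstitial cells (Tcf21). Over all 21900 tested probe sets 6743 passed in this contrast, of which 4077 were higher in 129Sv. The part of these cell contents in the strain differences of the members was not tested.

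**Figure D4:**
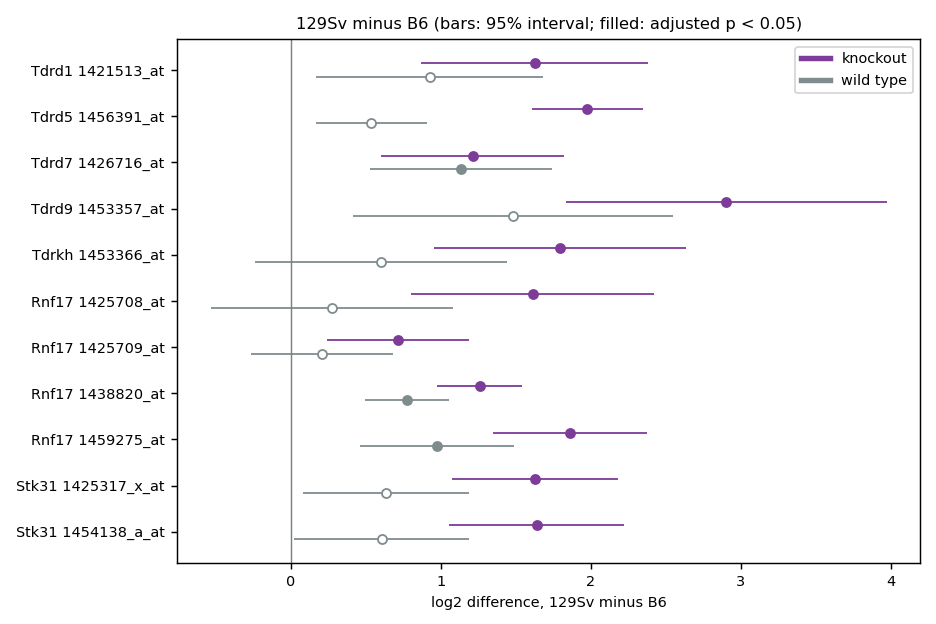
Difference of 129Sv minus B6 on the log2 scale for the 11 tested probe sets, in KO testes and in WT testes, with unadjusted 95% intervals from limma, and filled points where the adjusted p is under 0.05. All 11 points of the KO testes are filled, and 3 of those of the WT testes.

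Of the 6 germ cell markers, 1 rose and 0 fell in 129Sv KO testes, and 2 fell and 0 rose in B6 KO testes. Without B6 KO replicate 3, 3 rose in 129Sv and 2 fell in B6, and the median B6 difference of the 6 was -0.03, against -0.30 with the array. Ddx4, an RNA helicase of germ cells, differed by 0.02 ± 0.16 in 129Sv (adjusted p = 0.965) and by -0.46 ± 0.16 in B6 (adjusted p = 0.111, limma, n = 3 each). Dazl, an RNA-binding protein of germ cells, differed by 0.41 ± 0.21 in 129Sv (adjusted p = 0.333) and by -0.13 ± 0.21 in B6 (adjusted p = 0.727, limma, n = 3 each). Dppa3 rose in 129Sv (0.93 ± 0.15, adjusted p = 0.0023, limma, n = 3 each). In B6 Dnd1 fell (-1.43 ± 0.25, adjusted p = 0.00455), as did Mael (-0.96 ± 0.14, adjusted p = 0.00134, limma, n = 3 each). The summed intensity of the 6 markers was 17627 to 21727 in 129Sv KO testes and 17251 to 17598 in 129Sv WT testes. It was 8324 to 12931 in B6 KO testes and 13215 to 14996 in B6 WT testes. The groups overlapped in neither strain, with the KO arrays higher in 129Sv and lower in B6. In 129Sv this was narrow, since the lowest KO sum (17627) lay just above the highest WT sum (17598). The part of the germ cell content in the KO differences of the members was not tested in either strain. Of 7 Sertoli cell markers, 1 fell in 129Sv (Cst9) and 2 in B6 (Cst9 and Sox8). No marker of fetal Leydig cells, endothelial cells, macrophages and leukocytes, red blood cells or interstitial cells passed in either KO contrast with limma, and 1 or fewer of each list had an unadjusted p under 0.05. The summed Sertoli marker intensity was lower in KO testes without overlap, at 7357 to 8255 against 9383 to 10380 in 129Sv. In B6 it was 8082 to 8761 against 10218 to 11036. The endothelial sum was lower in 129Sv KO testes (562 to 690 against 765 to 866). In B6 KO testes it was higher (936 to 1040 against 810 to 872). The fetal Leydig sum was lower in 129Sv KO testes (13693 to 15421 against 17004 to 17775). The other sums overlapped between genotypes.

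Other genes of germ granules and the piRNA pathway were lower in B6 KO testes as well. Of a list of 25 such genes, which holds the germ cell markers Ddx4 and Mael too, 22 were tested, and in B6 14 fell, 0 rose and 8 did not pass. Without B6 KO replicate 3, 15 fell. In 129Sv 2 fell, 1 rose and 19 did not pass, and without 129Sv KO replicate 3, 6 fell. The median log2 difference of the 22 was -0.30 in 129Sv and -1.18 in B6, against 0.00 over all tested probe sets in both strains. The largest B6 falls were those of Dnmt3l, a cofactor of DNA methylation (-4.55 ± 0.53, 23.5-fold, adjusted p = 0.000315), Piwil1, a PIWI protein (-3.20 ± 0.39, 9.18-fold, adjusted p = 0.000409) and Gtsf1, a PIWI cofactor (-2.62 ± 0.23, 6.17-fold, adjusted p = 2.36e-05, limma, n = 3 each). Morc1 (-2.45 ± 0.20) and Piwil4 (-2.42 ± 0.29), which encodes MIWI2, and Exd1 (-1.88 ± 0.32) followed, with adjusted p between 1.58e-05 and 0.00379 (limma). In 129Sv Piwil1 (-1.61 ± 0.39, adjusted p = 0.0256) and Tex15 (-0.84 ± 0.21, adjusted p = 0.0338) fell, and Tdrd12 rose (1.30 ± 0.33, adjusted p = 0.0312, limma, n = 3 each). Gtsf1, Asz1 and Morc1 passed the difference of the effects between strains, by 2.54, 1.10 and 1.74.

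**Figure D5:**
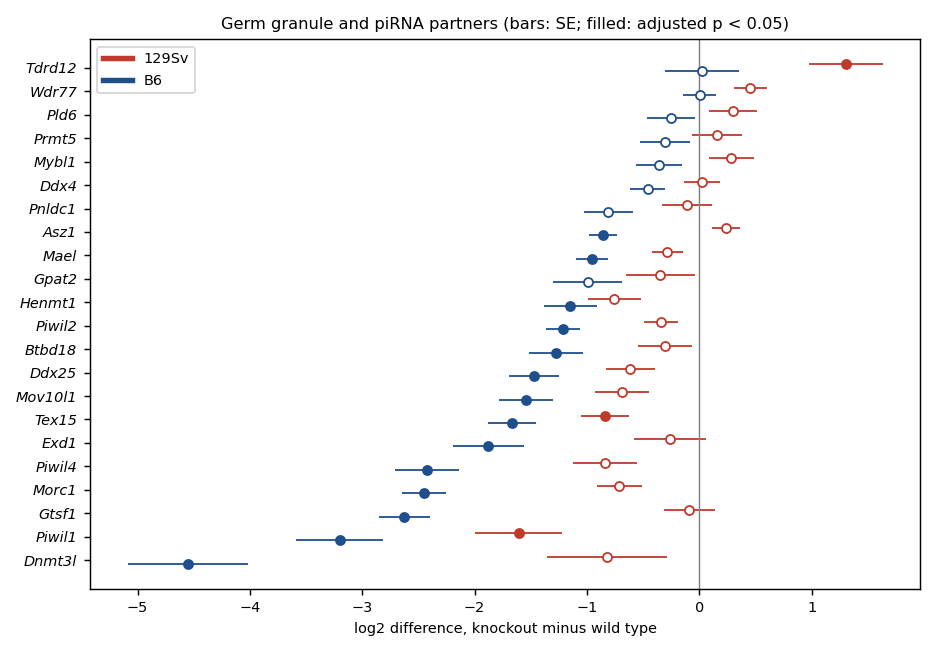
KO minus WT difference on the log2 scale in 129Sv and in B6 for the 22 tested germ granule and piRNA partner genes (1 probe set per gene), with bars for the standard error and filled points where the adjusted p is under 0.05. Most points of B6 lie below 0, with Dnmt3l lowest at -4.55.

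Tudor domain genes outside the members were also counted. Of 7 such genes (Tdrd3, Tdrd10, Tdrd12, Snd1, Akap1, Smn1 and Smndc1), 6 were tested, with 1 rise in 129Sv (Tdrd12) and 0 calls in B6, where 2 of 6 had an unadjusted p under 0.05 (limma). The rise of Tdrd12 was lost without 129Sv KO replicate 3. The difference from the members was not tested. In KO testes, Tdrd12 and Smndc1 were higher in 129Sv than in B6.

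Over the 12 arrays the genes most like Tdrd9 by Pearson r were Mat1a, Nlrp4f and Ndrg4, with r of 0.986, 0.985 and 0.984. Those most like Tdrd5 were Cfap300, Rpl39l and Tcfl5, with r of 0.990, 0.990 and 0.986. Rnf17 1459275_at was most like Scml2, Brdt and Bcas1 (r of 0.992, 0.992 and 0.990), whereas Rnf17 1438820_at was most like Retreg1, Trmt11 and Rasgrp1 (r of 0.977, 0.973 and 0.971). The correlations are over 12 arrays in 4 groups and describe how the groups differ in level. Among members, 1459275_at correlated with Tdrd1, Tdrd5, Tdrd9 and Stk31 (1454138_a_at) with r of 0.955, 0.947, 0.924 and 0.928, whereas 1438820_at gave 0.133, 0.457, 0.0285 and 0.402 with the same probe sets.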

How the data were processed

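Total RNA of 12 testes samples was hybridised to Affymetrix arrays, per the labels. The authors' deposited values are intensities summarised per probe set with GCRMA, per the submitters' processing notes, with no version or settings stated in the sources used. They were read as linear and log2 was taken here. Probe sets were named by the platform annotation, 34958 with 1 gene, 932 with several and 9211 with none, and 13 control probe sets with a gene were left out. The test took the 21900 that reached a log2 value of 4, which is an intensity of 16, on 3 or more arrays.

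All 12 arrays entered 1 linear model with a mean per group (limma 3.58.1, R 4.3.3; lmFit, then eBayes with a variance trend, with 8 residual and 5.80 prior degrees of freedom). Contrasts were KO minus WT in each strain, their difference (129Sv minus B6), and 129Sv minus B6 in each genotype. Adjustment was by Benjamini-Hochberg, with 0.05 as the threshold. A fold is "at least" where 1 group mean lies below 16, against which it is computed. The number of arrays, 3 per group, limits the precision. The fit was tested on simulated data. Replicate numbers were taken from the descriptions. The arrays were not fitted as pairs, and the replicate number and the first title number, shared by 2 pairs of B6 arrays, were tried as blocks.

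The members, lists and motifs were chosen with earlier results of these data known. Other genes named are Dmrt1, Ddx4, Dazl, up to 6 called members of a list by size of the difference, and the 3 genes most like a member by Pearson r. Lists use the probe set of highest mean per gene. Alternatives were other filters, normalizations, floors, covariates and sets of arrays, and counts of lists without B6 KO replicate 3 or 129Sv KO replicate 3 were added after the data were seen, as were the alternatives for the pair of Rnf17 probe sets. Promoter windows come from RefSeq for GRCm38.p6.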

Additional observations from a re-analysis of the deposited data

Results flagged for a closer look

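The Tdrd5 probe set 1456391_at differed in its KO effect between the strains by 1.44 on the log2 scale (129Sv minus B6, adjusted p = 0.0211, limma). The effect was 0.03 ± 0.17 in 129Sv and -1.41 ± 0.17 in B6 (standard error, n = 3 arrays a group). The difference passed in 6 of the 12 fits that left out 1 array. With the title number before the strain code as a covariate, where 129Sv WT replicate 2 alone sets the 129Sv WT level, the difference was 1.34.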

How the results depend on the processing

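The calls of Tdrd5, Tdrd9 and Rnf17 1459275_at in B6 and of Rnf17 1438820_at in 129Sv passed under all alternatives. The pair difference of Rnf17 was run with quantile normalization, the floor and each array left out, and was 1.69 to 1.95. Its exact p was the smallest possible each time and says nothing about stability. Counts of called probe sets moved by over 1.5 times as follows, and the cause was not tested. For KO against WT in 129Sv 1258 became 836 with a filter at a log2 value of 6, 295 with the title number before the strain code as a covariate, and 1916 when the Actb ratio entered as a covariate. That title number is 11 only on 129Sv WT replicates 1 and 3, so it is partly confounded with genotype in 129Sv. In B6 1099 became 447 with only the groups compared and 702 with the Actb ratio. For the difference of effects 73 became 167 with 1 probe set per gene, 166 with a floor, 16 with the title number, 131 with the Actb ratio and 152 without the 2 arrays of highest Actb ratio. For 129Sv against B6 in WT 3095 became 2054 with 1 probe set per gene, 1824 with the title number and 4649 without those 2 arrays, and in KO 6743 became 4345 with 1 probe set per gene.

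Of the members, the single rise in B6 became 0 with no filter, no variance trend, only the groups compared, the replicate block or the title number. Member counts with the title number are not given for contrasts that use 129Sv WT, for the same reason as above. Those higher in 129Sv became 9 (only the groups compared), 7 (Actb ratio) and 8 (without those 2 arrays) in WT, and in KO 7 with 1 probe set per gene, where only 7 were tested, and 9 with the floor. Departing Rnf17 probe sets in 129Sv became 2 with no filter, the filter at 6 or the floor, and 1 with only the groups compared or the Actb ratio. In B6 they became 0 with only the groups compared or the replicate block, and 1 with the Actb ratio. With the filter at 6 the 2 departing probe sets of a strain are a single difference read in both directions.

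Signs turned for differences near 0. With the title number these were Tdrd5 (-0.064) and Tdrkh (-0.020) in 129Sv, the difference of effects of Tdrd7 (-0.42) and the difference between strains of the departure of Rnf17 1459275_at (-0.098). Rnf17 1425709_at in B6 turned to 0.13 with the Actb ratio and 0.080 without those 2 arrays, and the difference of effects of Tdrd1 to -0.022 with the floor.

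When each array was left out in turn, the called probe sets ranged from 634 to 1976 for KO against WT in 129Sv, from 425 to 1630 in B6, from 33 to 136 for the difference of effects and from 1571 to 4527 for the strains in WT. Of the members, 0 to 3 fell in 129Sv, 3 to 8 fell and 0 to 1 rose in B6, 0 to 1 passed the difference of effects and 1 to 7 were higher in 129Sv in WT. Departing Rnf17 probe sets ranged from 0 to 2 in either strain. Differences that turned sign in this way ranged from -0.051 to 0.13 for Tdrd5 and from -0.043 to 0.24 for Tdrkh in 129Sv, from -0.18 to 0.083 for Rnf17 1425709_at in B6 and from -0.21 to 0.32 for the difference of effects of Tdrd7. The departure of Rnf17 1425708_at in 129Sv ranged from -0.075 to 0.15 and the difference between strains of that of 1459275_at from -0.086 to 0.30.

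Same-numbered KO and WT arrays deviated from their group means with correlations of -0.22, -0.51 and -0.05 in 129Sv and 0.05, -0.12 and -0.06 in B6, so the numbers were not taken as pairs. Differently numbered arrays gave -0.35 to 0.40 in 129Sv and -0.11 to 0.14 in B6. Whether KO and WT arrays share structure that the numbers do not mark was not tested. With the first title number, which 2 B6 KO and WT pairs share, as a random block, added after the data were seen, no member call or count changed (consensus correlation 0.088 over probe sets and -0.0135 over departures). Dim probe sets (Tdrd1, Rnf17 1425708_at and 1425709_at) are limited by their signal over background.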
